A study of Mus musculus with 2 samples.

Results

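The let-7 genes described here are Mirlet7a-1, Mirlet7a-2, Mirlet7c-1, Mirlet7c-2, Mirlet7f-1 and Mirlet7f-2, the members of the mouse let-7 family whose main mature form is encoded at 2 loci. They were chosen by gene symbol, from the GENCODE M21 names of the rows, and not by any measured value. Earlier results of these data were known when this choice was made. They are 6 of the 2202 miRNA genes in each count table. MicroRNA sequencing of total RNA, with a size range labelled as below 30, had been done on wild-type adrenal gland from C57BL/6J mice, an inbred strain supplied by The Jackson Laboratory. The series holds 1 group of 2 libraries, numbered as biological replicates 1 and 2, with no treatment and no second condition. The labels give age and developmental stage as unknown. A free-text label says male, while the sex field reads not collected. The replicates have separate biosample records and 1 donor record in common, so separate animals are not shown, and the spread between the libraries may be technical.

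Let-7 was found in the nematode Caenorhabditis elegans as a regulator of developmental timing, and in mammals it forms a family of miRNAs that are abundant in differentiated tissues. A let-7 hairpin is cut by Drosha and Dicer, its 5p arm is loaded into an Argonaute protein, and the seed at the start of that arm pairs with target mRNAs such as those of Hmga2, Lin28b and Ras genes. The proteins LIN28A and LIN28B bind let-7 precursors and block their processing. When the same mature miRNA comes from several loci, its reads cannot be traced to 1 locus by the mature letters alone.

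The mature sequences are shown first because they decide which reads can be told apart. The 5p arms of let-7a, let-7c and let-7f are 22 nt long and are printed below 5′ to 3′ with the seed (bases 2 to 8) in capitals. That of let-7g is printed beside them. Its gene had the most reads placed at 1 locus in the family, a count that leaves out reads placed at several loci. The sequences come from RefSeq on build GRCm38.p6, which gave hairpins for all 6 copies.

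let-7a-5p: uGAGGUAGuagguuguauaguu
let-7c-5p: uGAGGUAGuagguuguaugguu
let-7f-5p: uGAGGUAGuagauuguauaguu
let-7g-5p: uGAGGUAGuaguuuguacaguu

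All of these share the seed GAGGUAG. Counting positions from 1 at the 5′ end and with let-7a-5p as the reference, let-7c-5p differs by the single substitution A19G and let-7f-5p by G12A, both outside the seed. Each of the arms of let-7a, let-7c and let-7f stands in 2 annotated hairpins on its own strand, whereas the let-7g arm stands in 1.

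The 6 hairpins show where a read can be placed at 1 locus. Capitals mark every base that lies in a stretch of 20 nt found, on either strand, in the hairpin of a miRNA gene at another locus.

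Mirlet7a-1: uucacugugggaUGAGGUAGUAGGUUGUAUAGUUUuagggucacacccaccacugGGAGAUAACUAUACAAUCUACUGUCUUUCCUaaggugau
Mirlet7a-2: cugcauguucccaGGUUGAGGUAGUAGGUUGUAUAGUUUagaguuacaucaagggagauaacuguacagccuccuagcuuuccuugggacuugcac
Mirlet7c-1: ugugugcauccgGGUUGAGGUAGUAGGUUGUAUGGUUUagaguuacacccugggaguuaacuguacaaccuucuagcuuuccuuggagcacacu
Mirlet7c-2: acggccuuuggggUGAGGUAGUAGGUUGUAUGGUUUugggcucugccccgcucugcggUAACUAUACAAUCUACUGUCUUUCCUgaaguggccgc
Mirlet7f-1: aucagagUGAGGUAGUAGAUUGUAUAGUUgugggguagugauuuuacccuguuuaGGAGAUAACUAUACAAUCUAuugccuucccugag
Mirlet7f-2: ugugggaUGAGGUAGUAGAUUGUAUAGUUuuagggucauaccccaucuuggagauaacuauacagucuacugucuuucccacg

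The 5p arm was shared at every one of the 6 loci, but the shared stretch ended at different places. Between Mirlet7f-1 and Mirlet7f-2 the longest stretch in common was the 22 nt arm itself. Between Mirlet7a-1 and Mirlet7a-2 it was 23 nt, the arm and 1 further base, and between Mirlet7c-1 and Mirlet7c-2 it was also 23 nt. The shortest forms that start at the 5p arm and run on with the genome's own bases until they differ from the sister copy are printed here, with the added bases in capitals.

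Mirlet7a-1, 24 nt: ugagguaguagguuguauaguuUU
Mirlet7a-2, 24 nt: ugagguaguagguuguauaguuUA
Mirlet7c-1, 24 nt: ugagguaguagguuguaugguuUA
Mirlet7c-2, 24 nt: ugagguaguagguuguaugguuUU
Mirlet7f-1, 23 nt: ugagguaguagauuguauaguuG
Mirlet7f-2, 23 nt: ugagguaguagauuguauaguuU

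None of these 6 forms was found in an annotated miRNA hairpin at another locus. Genes that overlap a copy were left out of this search, and Gm24111 overlaps Mirlet7f-1 on the opposite strand. The 23 nt forms of let-7a and of let-7c, which end in 1 added U, stood in both copies. A single U after the arm therefore separates the let-7f copies and does not separate the copies of let-7a or let-7c. Reads with bases added after cutting, which do not come from the genome, cannot be told from these forms in counts.

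The 3p arms differed more. The arms of Mirlet7a-2, Mirlet7c-1, Mirlet7f-1 and Mirlet7f-2 were each found in no hairpin at another locus, again with overlapping genes left out. Mirlet7a-1 and Mirlet7c-2, which belong to different mature families, carry the same 3p arm of 22 nt, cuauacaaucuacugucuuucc. Of all windows of 22 nt, 97.3% were found in 1 hairpin locus alone for Mirlet7a-2, 97.3% for Mirlet7c-1, 98.5% for Mirlet7f-1 and 98.4% for Mirlet7f-2. For Mirlet7a-1 and Mirlet7c-2 these were 90.4% and 90.5%. Of all 2202 miRNA genes, 49.4% had a stretch of 20 nt in common with a gene at another locus. Sequence outside annotated hairpins was not searched.

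**Figure D1:**
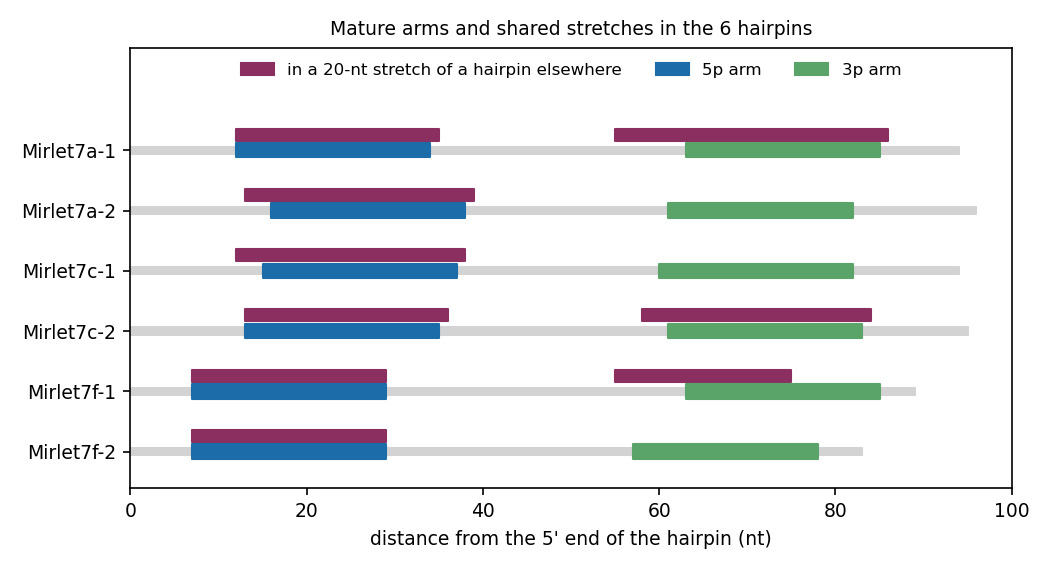
The 6 hairpins drawn to scale, with distance from the 5′ end in nt on the x axis. Blue and green mark the 5p and 3p arms, and the purple bar marks bases in a stretch of 20 nt shared with a hairpin at another locus. The purple bar covers the 5p arm in all 6 hairpins, the whole 3p arm in Mirlet7a-1 and Mirlet7c-2, and a portion of it in Mirlet7f-1.

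On mm10 the copies lie at 5 places. Mirlet7a-1 (ENSMUSG00000065421.3) lies on chromosome 13 from 48538179 to 48538272 and Mirlet7f-1 (ENSMUSG00000105621.1) from 48537829 to 48537917, both on the minus strand, with 261 nt between them. Both overlap an exon of the long noncoding gene 6720427I07Rik. Mirlet7a-2 (ENSMUSG00000092770.1) lies on the plus strand of chromosome 9 from 41536716 to 41536811, in introns of the noncoding genes 3110039I08Rik and Gm49317. Mirlet7c-1 (ENSMUSG00000065557.3) lies on the plus strand of chromosome 16 from 77599657 to 77599750, within an intron of Mir99ahg, a noncoding host gene, and opposite an intron of the protein-coding gene Gm11146. Mirlet7c-2 (ENSMUSG00000065608.1) lies on the plus strand of chromosome 15 from 85706603 to 85706697 and overlaps an exon of the noncoding gene Lncppara. Mirlet7f-2 (ENSMUSG00000065602.1) lies on the plus strand of the X chromosome from 151912346 to 151912428, in an intron of Huwe1, which encodes a ubiquitin ligase.

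Replicate 1 held 10263894 counts at miRNA genes and replicate 2 held 3525666, so counting error is smaller in replicate 1. The libraries also differed in mapping, with 13.8% of all reads unmapped in replicate 1 and 41.4% in replicate 2. Reads assigned to miRNA genes were 49.8% of all reads in replicate 1 and 33.2% in replicate 2. The part of this in the replicate differences below was not tested. Reads placed at several loci, 6718323 in replicate 1 and 2415794 in replicate 2, entered no gene in the deposited tables. For each read counted at the 6 copies there were 55.8 such reads in replicate 1 and 64.1 in replicate 2, and how many of these were let-7 reads is not recorded. Every level below is therefore a level of reads placed at 1 locus and sets no upper limit on the mature miRNA. Among marker miRNAs, all 4 neuroendocrine genes, known from adrenal medulla and similar cells, were detected at a summed 73420 CPM (counts per 1000000 counts at miRNA genes) in replicate 1 and 80086 CPM in replicate 2. The endothelial gene Mir126a was higher than that sum, at 89916 CPM in replicate 1 and 95595 CPM in replicate 2, and both smooth muscle genes were detected, at a summed 25619 and 26619 CPM. The liver gene Mir122 was detected at 104 CPM in replicate 1 and 97.6 CPM in replicate 2. Kidney genes, 2 of 3 detected, summed to 72.1 and 81.4 CPM, and epithelial genes, 2 of 5 detected, to 48.6 and 43.1 CPM. Of 7 skeletal and heart muscle genes none was detected, and 5 had no count. Among these 5 are the paired copies Mir1a-1 and Mir1a-2, and Mir133a-1 and Mir133a-2. Reads that fit both copies of a pair would have entered no gene, so these values cannot show that muscle miRNAs were absent. The same limit holds for other paired copies in these lists, such as Mir194-1 and Mir194-2 of the kidney genes. The erythroid list, with 2 of 3 genes detected, summed to 8370 CPM in replicate 1 and 1814 CPM in replicate 2, and the leukocyte list, with 3 of 3, to 508 and 876 CPM. MiRNA tables hold no gene that defines adrenal cortex cells, so the tissue label could be checked only this far.

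All 6 copies were detected, which here means 10 CPM or more in both replicates, as were 267 miRNA genes in all. Together they took 1.17% of assigned counts in replicate 1 and 1.07% in replicate 2, a mean of 1.12% ± 0.073 (SD, n = 2). A miRNA read covers a whole arm, so levels are not divided by gene length. The 8 other let-7 family genes in the tables, led by Mirlet7g, Mirlet7b, Mirlet7i and Mirlet7d, took 28.7% in replicate 1 and 22.7% in replicate 2. Among the 8 are Mirlet7j and Mirlet7k, which carry the symbols Mir7j and Mir7k here and whose mature sequences were not examined. Of all let-7 family counts the 6 copies held 3.93% in replicate 1 and 4.49% in replicate 2. The median of the mean levels was 588 CPM over the 6 copies and 18674 CPM over the 8 other genes, 7 of which were detected. These shares compare reads placed at 1 locus, and the reads set aside as multimapping are missing from the duplicated copies to an unknown extent.

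**Figure D2:**
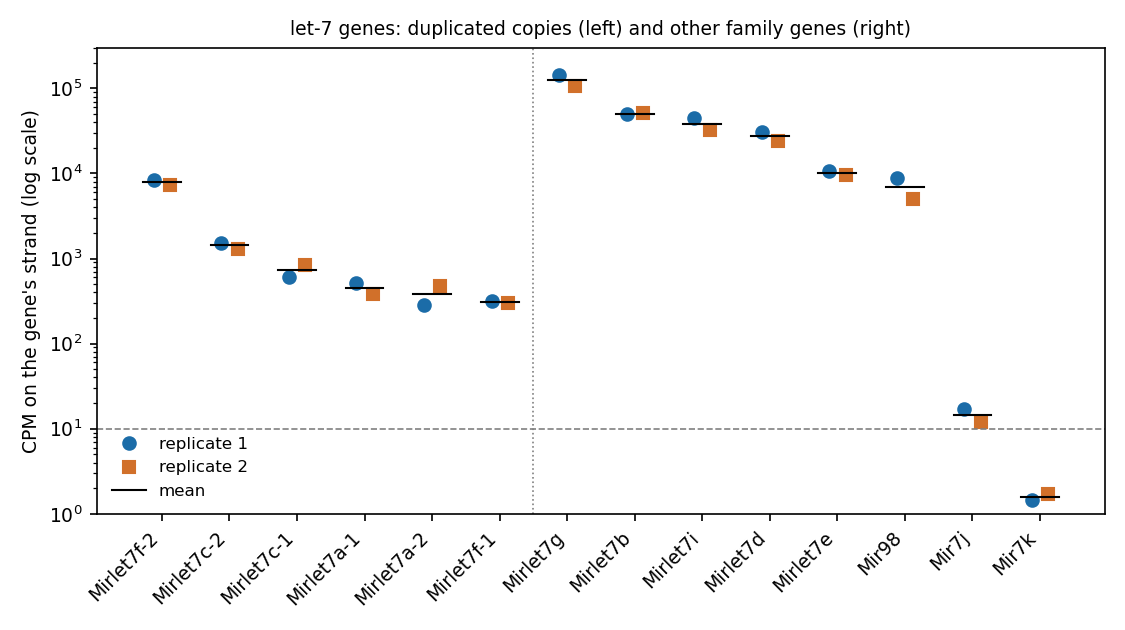
Level of each let-7 gene in CPM on a log axis, with the 6 duplicated copies left of the dotted line and the 8 other family genes right of it. Mirlet7j and Mirlet7k appear as Mir7j and Mir7k. Blue circles are replicate 1, orange squares replicate 2, black bars their mean, and the dashed line is 10 CPM. Mirlet7f-2 stands near the level of Mir98 and the other 5 copies stand between 287 and 1536 CPM.

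Mirlet7f-2 was by far the highest of the copies. It had 86804 counts (8457 CPM) in replicate 1 and 26040 counts (7386 CPM) in replicate 2, a mean of 7922 ± 758 CPM (SD, n = 2). It held 72.1% of the counts at the 6 copies in replicate 1 and 69.1% in replicate 2, and ranked 24th among all miRNA genes in both. Its sister Mirlet7f-1, with the identical 5p arm, had 3256 counts (317 CPM) in replicate 1 and 1051 counts (298 CPM) in replicate 2, a mean of 308 ± 13.5 CPM. The let-7f copies thus lay 26.7-fold apart in replicate 1 and 24.8-fold apart in replicate 2, and their values did not overlap. They are the pair whose copies differ at the first base after the arm, and whether this bears on the levels was not tested.

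Both let-7c copies were of middle level. Mirlet7c-2 had 15767 counts (1536 CPM) in replicate 1 and 4614 counts (1309 CPM) in replicate 2, a mean of 1422 ± 161 CPM (SD, n = 2). Mirlet7c-1 had 6276 counts (611 CPM) in replicate 1 and 2943 counts (835 CPM) in replicate 2, a mean of 723 ± 158 CPM. Mirlet7c-2 was the higher copy in both libraries, by 2.51-fold in replicate 1 and by 1.57-fold in replicate 2. The lowest value of Mirlet7c-2 stood above the highest of Mirlet7c-1.

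The let-7a copies changed places between the libraries. Mirlet7a-1 had 5343 counts (521 CPM) in replicate 1 and 1358 counts (385 CPM) in replicate 2, a mean of 453 ± 95.7 CPM (SD, n = 2). Mirlet7a-2 had 2942 counts (287 CPM) in replicate 1 and 1697 counts (481 CPM) in replicate 2, a mean of 384 ± 138 CPM. Mirlet7a-1 was higher in replicate 1 and Mirlet7a-2 in replicate 2, so the ranges overlap and the mean levels did not differ beyond the spread between replicates.

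By mean level the order was Mirlet7f-2, Mirlet7c-2, Mirlet7c-1, Mirlet7a-1, Mirlet7a-2 and Mirlet7f-1. The first 3 kept their places in both libraries and did not overlap with their neighbours in the order. Mirlet7a-1 overlapped with Mirlet7a-2, and Mirlet7a-2 with Mirlet7f-1, which stood above Mirlet7a-2 in replicate 1 and below it in replicate 2. Outside the copies, the miRNA genes nearest to them in level, by Euclidean distance of log2(CPM + 1) over the 2 libraries, were Mir22 for Mirlet7f-2, Mir149 for Mirlet7c-2, Mir137 for Mirlet7c-1, Mir485 for Mirlet7a-1, Mir142 for Mirlet7a-2 and Mir667 for Mirlet7f-1. The distances ran from 0.04 for Mir137 to 0.31 for Mir22. With 2 libraries this measures likeness of level and replicate ratio together.

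The share of each pair that came from its first copy does not depend on how the libraries are scaled. For let-7a, Mirlet7a-1 gave 64.5% of the counts of both copies in replicate 1, with an exact Clopper-Pearson 95% interval from 63.4% to 65.5%. In replicate 2 it gave 44.5%, with an interval from 42.7% to 46.2%. The intervals cover counting error only and lie far apart. The odds of a let-7a count coming from Mirlet7a-1 were 2.27-fold higher in replicate 1 than in replicate 2, with an adjusted p of 2.94e-80 by Fisher's exact test (two-sided) with Benjamini-Hochberg adjustment over 26 pairs.

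For let-7c, Mirlet7c-1 gave 28.5% of the counts of both copies in replicate 1 (interval 27.9% to 29.1%) and 38.9% in replicate 2 (interval 37.8% to 40.1%). The share moved the other way from that of Mirlet7a-1, with an odds ratio of 0.624 for replicate 1 over replicate 2 and an adjusted p of 7.34e-62 by Fisher's exact test. For let-7f, Mirlet7f-1 gave 3.62% in replicate 1 (interval 3.49% to 3.74%) and 3.88% in replicate 2 (interval 3.65% to 4.12%). The let-7f difference did not pass, with an odds ratio of 0.929 and an adjusted p of 0.116 by Fisher's exact test.

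The 26 pairs tested were all pairs of miRNA genes in the tables whose symbols differ in the ending -1 or -2 alone and have no further copy, with at least 10 counts over both copies and libraries. Of them 9 passed the test at 0.05 (34.6%), so a copy share that differed between these libraries was not rare. The pairs of let-7a and let-7c were 2 of the 9. In points of share the median difference over the 26 pairs was 3.25, against a difference, replicate 1 minus replicate 2, of 20.04 for let-7a, -10.5 for let-7c and -0.264 for let-7f. Among the 26 pairs only Mir7-1 and Mir7-2, named here after their values were seen, had a larger difference than let-7a, with 21.3 points. The mean share of Mirlet7f-2 in the let-7f counts was 96.3%, while the larger copy of the median pair held 85.7%. The test compares 2 libraries and says nothing of tissues or conditions.

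**Figure D3:**
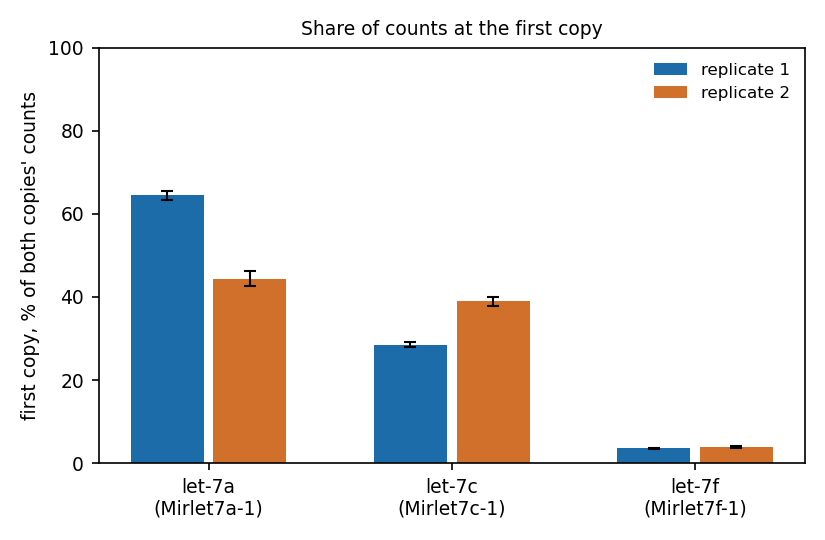
Share of the counts of both copies that came from the first copy, in percent, for each pair, with replicate 1 in blue and replicate 2 in orange. Bars start at 0 and error bars are exact 95% binomial intervals, which cover counting error only. The let-7a share is higher in replicate 1, the let-7c share is higher in replicate 2, and both let-7f shares are under 4%.

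Gene by gene, replicate 1 was set against replicate 2 with an exact two-sided binomial test, using library sizes scaled by TMM (trimmed mean of M values) and Benjamini-Hochberg adjustment over the 443 genes with at least 10 counts in the libraries together. Of these 443 genes 52.8% were called at an adjusted p below 0.05, 31.6% higher in replicate 1 and 21.2% higher in replicate 2. Of the 6 copies 5 were called, 3 higher in replicate 1 and 2 higher in replicate 2. A call here says only that a difference exceeded counting error. The share of all genes called depended on the count minimum and was 29.5% with at least 1 count and 69.9% with at least 50 counts, while 5 copies were called under both. All 6 copies lie far above these minimums, and the share called among genes of like depth was not computed. The number of copies called is therefore not shown to be high.

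The copies higher in replicate 1 were Mirlet7a-1, Mirlet7c-2 and Mirlet7f-2. Their log2 ratios of replicate 1 over replicate 2 were 0.45 (95% interval 0.37 to 0.54) for Mirlet7a-1, 0.25 (0.20 to 0.30) for Mirlet7c-2 and 0.21 (0.19 to 0.23) for Mirlet7f-2. Those higher in replicate 2 were Mirlet7a-2, with a log2 ratio of -0.73 (-0.82 to -0.64), and Mirlet7c-1, with -0.43 (-0.50 to -0.37). The largest adjusted p among these 5 by the exact binomial test was 6.37e-25, for Mirlet7c-2. Mirlet7f-1 had a log2 ratio of 0.11 (0.01 to 0.21) and did not pass, with an adjusted p of 0.0685 by the same exact test. The median absolute log2 ratio was 0.34 over the 6 copies and 0.45 over all 443 genes. Mirlet7a-2 stood at percentile 73.1 of all genes by absolute log2 ratio and Mirlet7a-1 at 51.2, and the other 4 copies stood between 12.6 and 49.0. The median signed log2 ratio was 0.16 over the copies and 0.17 over all genes tested. Of the 8 other let-7 family genes, 5 were higher in replicate 1, 1 was higher in replicate 2 and 2, Mir7j and Mir7k, were not called. The median log2 ratio over the 8 was 0.41. The erythroid list was higher in replicate 1 and the leukocyte list higher in replicate 2 in the sums given above, and their part in these ratios was not tested.

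Each copy lies in a cluster with another miRNA gene on the same strand within 10 kb. The ratios of these neighbours are set beside those of the copies, and whether the genes of a locus share a ratio was not tested. Mirlet7a-2 lies 5211 nt from Mir100, and Mirlet7c-1 lies 656 nt from Mir99a. Mir99a and Mir100 are close paralogs of each other that stand beside let-7 and mir-125 genes in clusters conserved in animals. For Mir100, replicate 1 gave 3833 CPM and replicate 2 gave 5444 CPM, with a log2 ratio of -0.49 (95% interval -0.51 to -0.46). For Mir99a, replicate 1 gave 32560 CPM and replicate 2 gave 47509 CPM, with a log2 ratio of -0.53 (-0.54 to -0.52). The 2 copies higher in replicate 2 were those beside these 2 genes, and all 4 genes were higher in replicate 2 after TMM scaling of miRNA counts. No mir-125 gene lay within 10 kb of a copy on its strand. Mir125b-1 and Mir125b-2, named here after their values were seen, had log2 ratios of -0.27 and 0.006. Only Mir125b-1 was called, as higher in replicate 2. Whether whole clusters differed between the libraries was not tested. The interval of Mirlet7a-2 lay below that of Mir100, and the interval of Mirlet7c-1 lay above that of Mir99a. These intervals cover counting error only.

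On chromosome 13, Mirlet7a-1 and Mirlet7f-1 lie 2064 nt and 1714 nt from Mirlet7d, at 30470 CPM in replicate 1 and at 23864 CPM in replicate 2. Its log2 ratio was 0.37 (0.36 to 0.38), inside the interval of Mirlet7a-1 and above that of Mirlet7f-1. On the X chromosome, Mirlet7f-2 lies 785 nt from Mir98, a let-7 family gene at 8884 CPM in replicate 1 and at 5007 CPM in replicate 2, with a log2 ratio of 0.84 (0.82 to 0.87). Both were higher in replicate 1, and the ratio of Mir98 was the larger. On chromosome 15, Mirlet7c-2 lies 621 nt from Mirlet7b, at 49585 CPM in replicate 1 and at 50754 CPM in replicate 2. There the log2 ratio of Mirlet7b was -0.02 (-0.02 to -0.01), on the other side of 0 from that of Mirlet7c-2.

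**Figure D4:**
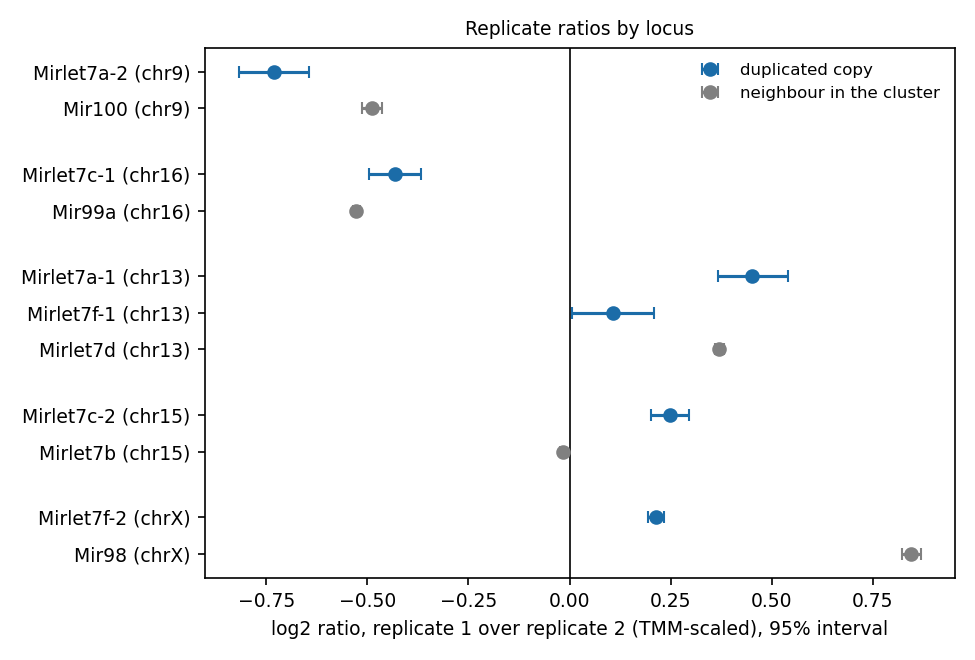
Log2 ratio of replicate 1 over replicate 2 after TMM scaling, by locus, for the 6 copies in blue and their neighbours within 10 kb in grey, with exact 95% intervals. Mirlet7a-2 and Mirlet7c-1 lie left of 0 together with Mir100 and Mir99a. The other 4 copies lie right of 0, with Mirlet7b just left of it beside Mirlet7c-2.

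Most of the neighbours were far above the copies in level. Mirlet7d had 58.5 times the CPM of Mirlet7a-1 in replicate 1 and 62.0 times in replicate 2, and 96.0 and 80.1 times that of Mirlet7f-1. Mir99a stood 53.3-fold above Mirlet7c-1 in replicate 1 and 56.9-fold in replicate 2, and Mir100 stood 13.4-fold and 11.3-fold above Mirlet7a-2. Mirlet7b stood 32.3-fold and 38.8-fold above Mirlet7c-2. Mir98 was close to its copy, with 1.05 times the CPM of Mirlet7f-2 in replicate 1 and 0.678 times in replicate 2. The adjacent copies Mirlet7a-1 and Mirlet7f-1 were also close, Mirlet7a-1 having 1.64 times the CPM of Mirlet7f-1 in replicate 1 and 1.29 times in replicate 2. These are ratios of reads placed at 1 locus, so reads of the copies that were set aside as multimapping are not in them.

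Strand mattered at 1 copy. Mirlet7f-1 overlaps Gm24111, which is annotated as a miRNA gene on the opposite strand from 48537825 to 48537921 of chromosome 13. On its own strand Gm24111 had 4 counts in replicate 1 and 0 in replicate 2, against 3256 and 1051 for Mirlet7f-1. In the column counted without regard to strand, Mirlet7f-1 held 0 counts in both libraries, while the other 5 copies held the same counts as on their own strand.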

How the data were processed

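The authors deposited raw counts, 1 headerless table per library, with 4 summary lines and 3 columns. The description files deposited with the tables give mm10 as build and GENCODE M21 as annotation. The labels link an adapter trimming protocol. No aligner or counter is named in the sources used here. From the values, the columns were read as counts without strand, on the gene's strand and on the opposite strand, and the second was used. Counts were divided by the assigned total to give CPM. TMM scaling used edgeR 4.0.16 in R 4.3.3, with DESeq2 1.42.0 size factors as an alternative. Tests ran in scipy 1.17.1 on Python 3.11.15 and were tested on simulated data. Ratios add 0.5 counts. Hairpin sequences of all 2202 genes were compared by exact match.

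No contrast of conditions exists, so tests compare 2 libraries and intervals cover counting error only. The rule for named genes took the copies, miRNA genes within 10 kb on their strand, the gene nearest in level to each copy, and the let-7 family. Genes that overlap the copies and marker genes are named as annotation or checks. Mir7-1, Mir7-2, Mir125b-1 and Mir125b-2 were named after their values were seen. Members, lists and tests were chosen with earlier results of these data known. Alternative denominators, strand columns, count minimums, adjustments and window lengths were tried.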

Additional observations from a re-analysis of the deposited data

Results flagged for a closer look

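The column of opposite-strand counts enters no comparison above. At Mirlet7f-1 it held 4 counts in replicate 1, above the 3 counts that a count of 0 allows, and 0 in replicate 2. Gm24111, annotated on that strand, had the same counts on its own strand. At the other 5 copies it held 0 counts in both libraries. With 2 libraries in 1 group, no library was tested as standing apart.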

How the results depend on the processing

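The log2 ratios of the 6 copies and the copy shares of let-7a, let-7c and let-7f kept their direction and their side of 0.05 under each alternative run. So did the log2 ratios of their 5 neighbours outside the copies, a check added after seeing the data. The denominator with summary lines was run for levels and their sum alone, not for the log2 ratios. It lowers replicate 2 more, since 33.2% of its reads were assigned against 49.8% in replicate 1. Genes called higher in replicate 2 among miRNA counts therefore need not be higher under that denominator. Over all genes the number called was 234 and ran down to 178 with Bonferroni adjustment. For let-7f the copy share without regard to strand gave no ratio, since Mirlet7f-1 had no count there. The number of copies called stayed at 5 under each scaling, count minimum and adjustment, and was 5 in the column without regard to strand, where Mirlet7f-1 was not tested.

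Levels moved with the denominator. With summary lines in it, the copies averaged 194 (Mirlet7a-1), 151 (Mirlet7a-2), 291 (Mirlet7c-1), 599.8 (Mirlet7c-2), 128 (Mirlet7f-1) and 3332 (Mirlet7f-2) CPM, and their sum was 0.470%. Without the 5 most abundant miRNA genes in it, they averaged 784, 663, 1249, 2461, 532 and 13702 CPM in the same order. Without regard to strand, Mirlet7c-2 averaged 1624 CPM, Mirlet7f-2 9043 CPM and Mirlet7f-1 0 CPM. The sum was 1.24%, and the first copy of let-7f took 0% of its pair. Counts at every copy but Mirlet7f-1 were unchanged in that column. Their CPM rose with the smaller assigned total, 8993993 in replicate 1 and 3087250 in replicate 2. Mirlet7a-1, Mirlet7a-2 and Mirlet7c-1 rose too, to 517, 438 and 826 CPM, which lay within the SD of their main levels. With Mirlet7g taken out of the family, the copies held 7.80% of it. With windows of 24 nt, 2 copies, Mirlet7a-1 and Mirlet7c-2, shared a stretch with a hairpin elsewhere, against 6 with 20 nt. Depth limits the interval of Mirlet7f-1 most among the copies. No paired analysis was possible because there is 1 group.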
